A study of Rattus norvegicus with 12 samples.

Results

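Superoxide dismutases, catalase and peroxidases are the enzymes that remove superoxide and hydrogen peroxide. The 10 genes described here are Sod1, Sod2, Sod3, Cat, Gpx1, Gpx3, Gpx4, Prdx1, Prdx2 and Prdx6. They were chosen by name, and every probe set annotated to exactly 1 of these symbols was taken. All 10 genes were on the array, with 20 of its 8740 probe sets. A probe set is the group of oligonucleotides that reports 1 transcript, and a gene can have several.

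RNA was measured in the heart left ventricle of rats (Rattus norvegicus) on single-channel expression arrays. The exercised group held 6 arrays, after 7 weeks of treadmill running, and the sedentary group held 6. The series concerns the cardiac hypertrophy that follows training. Strain, sex, age, running schedule and the time between the last run and tissue collection were not stated in the labels used here. Nor was it stated whether each array is a separate animal, so p-values measure the spread between arrays.

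Superoxide dismutases turn superoxide, a by-product of respiration and of oxidases, into hydrogen peroxide. Catalase, glutathione peroxidases and peroxiredoxins then reduce the peroxide, the first without a partner and the others with electrons from glutathione or thioredoxin. Each enzyme works in its own place. Sod1, Prdx1, Prdx2, Prdx6 and most Gpx1 are in the cytosol, Sod2 is in the mitochondrial matrix, Gpx4 guards membrane lipids and has a mitochondrial form, Cat is in peroxisomes, and Sod3 and Gpx3 are secreted. Heart muscle respires heavily and is rich in mitochondria, and these enzymes are a classical subject of training studies.

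Values are the deposited linear intensities, and the median of an array lay between 839.7 and 875.01. Differences come from limma and are the exercised mean minus the sedentary mean of log2(intensity + 362.6), a scale that makes changes of dim probe sets look smaller. Adjusted p-values are Benjamini-Hochberg values over the 6555 probe sets that passed a filter on low mean intensity. Of the 20 member probe sets, 18 passed this filter. The Gpx1 probe set M21210_i_at, at 389 ± 11.4 on exercised and 416 ± 38.6 on sedentary arrays, and the Cat probe set rc_AA926149_at, at 193 ± 28.8 and 218 ± 43.0 on exercised and sedentary arrays (SD, n = 6 each), lay under it and were not tested. In left ventricle, 10 of 11 cardiomyocyte markers listed had a probe set, and their summed intensity was 385035 to 412380 on exercised and 378105 to 413209 on sedentary arrays. The array of sedentary 17 stood apart, with the lowest value of the 12 at 27.7% and the highest at 27.8% of tested probe sets. It had the lowest value at 8 of the 18 tested member probe sets and the highest at 1, so the difference without it is given beside each of these 9.

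No member passed the test. Of the 18 tested member probe sets, 0 had a limma adjusted p under 0.05, where 0.32% of all tested probe sets did (0.275% higher and 0.0458% lower), and the lowest member value was 0.101. At an unadjusted p under 0.05 there were 2, both higher in exercised samples, where 9.26% of all tested probe sets were higher and 6.91% lower at that level (16.2% in either direction). The exact rank-sum test, adjusted in the same way, called 0 of all 6555 tested probe sets, with 0.104 the smallest adjusted p it gave. Its 0 among the members therefore says nothing about them, and 2 members had an unadjusted p under 0.05 there. By sign 13 members were higher and 5 lower, where 51.4% of all tested probe sets were higher. The median difference was 0.02 over the members and 0.00 over all tested probe sets, and that of the members was -0.016 with quantile normalization, -0.044 with array weights and -0.024 without sedentary 17. The median size of the difference, whatever its sign, was 0.03 for the members and 0.06 for all tested probe sets.

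**Figure D1:**
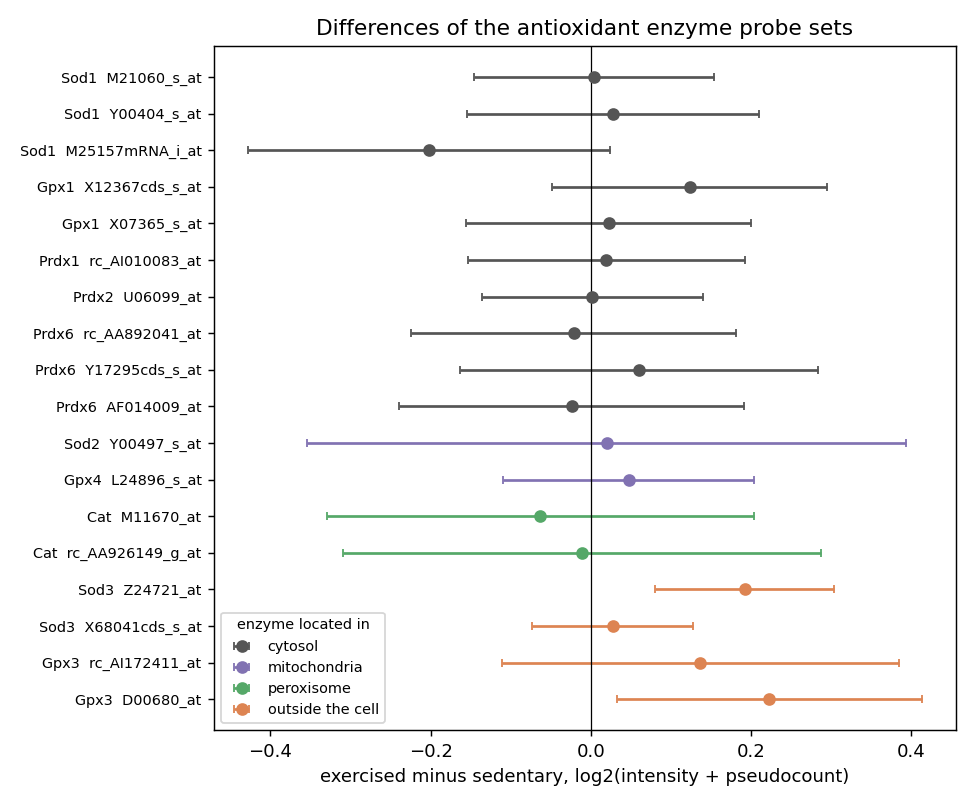
Exercised minus sedentary difference of each tested member probe set on the log2(intensity + pseudocount) scale (x axis), with its 95% confidence interval from limma (bars), coloured by the place assigned to the enzyme (n = 6 arrays per group). Gpx4 is counted under mitochondria for its mitochondrial form, though not all of it is there. The 4 probe sets of the secreted enzymes lie between 0.03 and 0.22, and the 14 of the enzymes inside the cell between -0.20 and 0.12, with a median of 0.01.

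Both probe sets with an unadjusted p under 0.05 belonged to secreted enzymes. Sod3, which binds to the matrix of vessel walls and tissue, had intensities of 2570, 2639 and 2985 (lowest, median and highest) on exercised arrays with the probe set Z24721_at, against 2104, 2270.5 and 2528 on sedentary arrays. Each exercised value was above each sedentary value, a separation found at 1 of the 18 tested member probe sets and at 2.07% of all tested probe sets. The means were 2698 ± 157 on exercised and 2317 ± 161 on sedentary arrays (SD, n = 6 each), a ratio of 1.16. The difference was 0.19 ± 0.052 (SE, limma adjusted p = 0.101, unadjusted p = 0.00239), with a 95% interval of 0.08 to 0.30, and it did not pass the threshold. Without sedentary 17 it was 0.17 (adjusted p = 0.104).

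The other Sod3 probe set, X68041cds_s_at, did not show this separation. Its intensities were 1056, 1166 and 1230 (lowest, median and highest) on exercised arrays and 1056, 1099.5 and 1294 on sedentary arrays, so the groups overlapped almost entirely. The difference was 0.03 ± 0.047 (SE, n = 6 each, limma adjusted p = 0.784). Its 95% interval over all 12 arrays was -0.07 to 0.13, which overlaps the 0.08 to 0.30 of the first probe set. Whether the 2 probe sets differ in their difference was not tested. On X68041cds_s_at sedentary 17 had the highest value, and without it the difference was 0.06 (adjusted p = 0.472). It was 0.01 without exercised 4, so single arrays moved it by more than 1.5 times in each direction. With group means removed, the 2 Sod3 probe sets ran in opposite directions over the 12 arrays (Pearson r = -0.641, Spearman rho = -0.664). Without sedentary 17 this r was -0.462. Which of them reports the Sod3 transcript more faithfully was not tested.

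Gpx3, the selenium-dependent peroxidase of plasma and extracellular fluid, was higher in exercised samples by sign on both of its probe sets. With D00680_at its intensities were 3074, 3523 and 3802 on exercised arrays (lowest, median and highest), against 2269, 2982 and 3494 on sedentary arrays. Of the exercised arrays, 4 were above the highest sedentary value, and 3 sedentary arrays were below the lowest exercised value, so the groups overlapped in the middle. The means were 3484 ± 280 and 2955 ± 470 on exercised and sedentary arrays (SD, n = 6 each), and the difference was 0.22 ± 0.089 (SE, limma adjusted p = 0.234, unadjusted p = 0.0248). Without sedentary 17, the lowest array, it was 0.16 (adjusted p = 0.301).

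The brighter Gpx3 probe set rc_AI172411_at gave 5364, 7241 and 9331 on exercised arrays (lowest, median and highest) and 5432, 6376 and 8186 on sedentary arrays. Here the lowest array of all was an exercised one, number 8. The difference was 0.14 ± 0.12 (SE, n = 6 each, limma adjusted p = 0.564). It was 0.06 without exercised 4 and 0.21 without exercised 8, so single arrays moved it by more than 1.5 times in each direction. Over the 12 arrays with group means removed, the 2 Gpx3 probe sets had a Pearson r of 0.368.

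**Figure D2:**
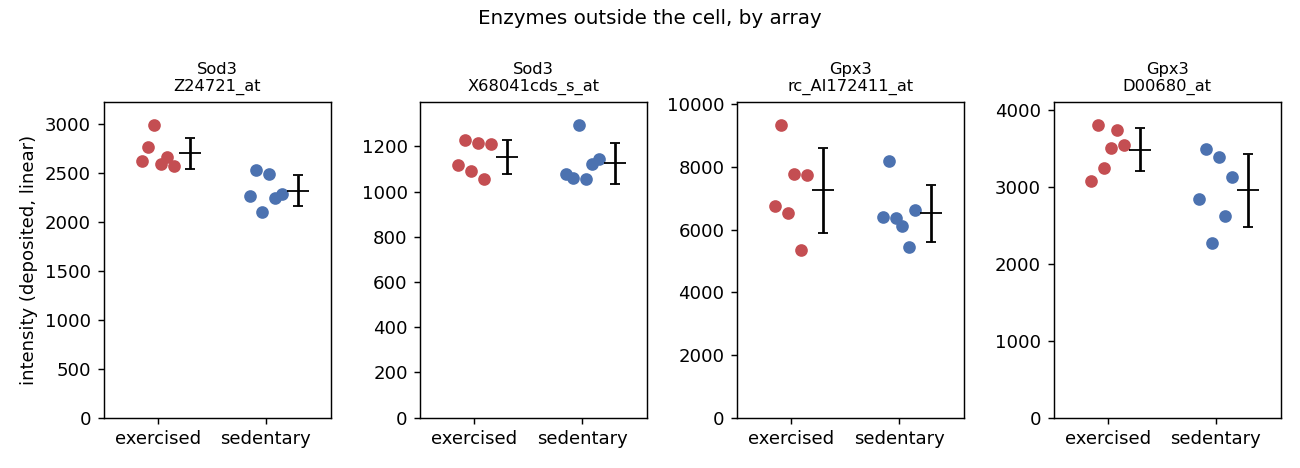
Deposited intensity (y axis, linear, from 0) of the 4 probe sets of the secreted enzymes Sod3 and Gpx3 on each of the 6 exercised (left) and 6 sedentary (right) arrays; the black marks are the group mean and SD. On Z24721_at the 6 exercised arrays sit between 2570 and 2985, above the sedentary range of 2104 to 2528, whereas the groups overlap on the other 3 probe sets.

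Markers of connective and vascular cells were measured beside these results, since smooth muscle cells and fibroblasts are known to make Sod3. In bulk ventricle, more cells of a type and more RNA per cell cannot be told apart. Of 8 tested fibroblast markers 7 were higher by sign, with a median difference of 0.24. In limma 0 of the 8 passed the adjusted threshold and 3 had an unadjusted p under 0.05. The summed intensity of the 9 on the array was 49538 to 76279.7 on exercised and 39384 to 53292 on sedentary arrays. Its largest part came from Mgp, with means of 20586 and 15534 on exercised and sedentary arrays, and the highest sum was on exercised 4. Of 5 tested smooth muscle markers all were higher by sign, with a median of 0.17, and 0 passed while 3 had an unadjusted p under 0.05. The sum of the 6 on the array was 20239 to 25493 on exercised and 18430.3 to 21001 on sedentary arrays, and most of it came from Des, desmin, which cardiomyocytes also make, with means of 16279 and 14014 on exercised and sedentary arrays. The other 5 summed to 5914 to 8179 on exercised and 4944 to 6994 on sedentary arrays, which overlap. Acta2, smooth muscle actin, had a difference of 0.34 on its brightest probe set, and -0.05 and 0.06 on its other 2. For 6 tested endothelial markers the median was 0.00, and the sum of the 7 on the array was 9149.8 to 10212 on exercised and 9291 to 10013 on sedentary arrays. The 9 tested macrophage and leukocyte markers had a median difference of -0.01, with 4 above 0 and 5 below, and 1 passed. This was Lyz2, a lysozyme of macrophages, which rose by 0.997 ± 0.18 (SE, n = 6 each, limma adjusted p = 0.0404), with values of 3274 to 9078 on exercised and 2000 to 2854 on sedentary arrays. The adjusted p of Lyz2 ran from 0.0137 to 0.104 with 1 array left out, and 8 of these 12 fits lost the call. Lgals3 and C1qb (0.50 and 0.37) and, in the other direction, Aif1 and Csf1r (-0.20 and -0.17) had an unadjusted p under 0.05 and did not pass. The sum of the 11 on the array was 22599 to 28980.4 on exercised and 21035 to 23266 on sedentary arrays. Within it Lyz2 had means of 5421 and 2401 on exercised and sedentary arrays, and Cd74, the brightest, 8087 and 8333. The part of fibroblasts, smooth muscle cells and macrophages in the Sod3 and Gpx3 differences was not tested.

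The cytosolic enzymes had 10 tested probe sets, of which 7 lay above 0 and 3 below, and the median difference was 0.01. None had an unadjusted p under 0.05. Their differences lay between -0.20 and 0.12.

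Sod1, the copper and zinc enzyme of the cytosol, gave 9272, 9948 and 11803 on exercised arrays (lowest, median and highest) with its brightest probe set M21060_s_at, against 8879, 10439 and 10858 on sedentary arrays. The sedentary values lay almost wholly inside the exercised range. The difference was 0.00 ± 0.070 (SE, n = 6 each, limma adjusted p = 0.983), and its 95% interval corresponds to folds of 0.904 to 1.11. With Y00404_s_at the difference was 0.03 ± 0.085 (adjusted p = 0.887). Sedentary 17 was lowest on both, and without it the differences were -0.03 and -0.01.

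The third Sod1 probe set, M25157mRNA_i_at, went the other way and had the largest negative difference of any member. Its intensities were 3398, 3672 and 5009 on exercised arrays (lowest, median and highest), against 3559, 4402 and 5492 on sedentary arrays. The highest exercised value came from exercised 8, and the other 5 exercised arrays lay between 3398 and 3862. The difference was -0.20 ± 0.11 (SE, n = 6 each, limma adjusted p = 0.362), and it was -0.27 without exercised 8 (adjusted p = 0.210). Over the 12 arrays with group means removed, M25157mRNA_i_at had a Pearson r of 0.619 with M21060_s_at and of -0.535 with Y00404_s_at. Between M21060_s_at and Y00404_s_at r was 0.129, so Y00404_s_at did not follow the other probe sets of this gene.

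Gpx1, the most widespread glutathione peroxidase, gave 15644, 18483 and 22324 on exercised arrays (lowest, median and highest) with X12367cds_s_at, against 15059.7, 17121 and 18081.5 on sedentary arrays. Of the exercised arrays, 3 were above the highest sedentary one, and the lowest exercised array was close to the lowest sedentary one. The difference was 0.12 ± 0.080 (SE, n = 6 each, limma adjusted p = 0.452), and 0.07 without exercised 4, the highest array. Its companion X07365_s_at gave 0.02 ± 0.083 (adjusted p = 0.909), and the 2 probe sets were unrelated over the arrays (Pearson r = -0.0067 with group means removed).

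The peroxiredoxins are thiol peroxidases that are oxidised by peroxide and reduced again by thioredoxin or, for Prdx6, by glutathione. Prdx2, which is also abundant in red blood cells, gave 8102, 9562 and 9857 on exercised arrays (lowest, median and highest), against 8142, 9405 and 10051 on sedentary arrays. The ranges were almost the same. The difference was 0.00 ± 0.065 (SE, n = 6 each, limma adjusted p = 0.990), with an interval of folds of 0.91 to 1.10, the narrowest of the cytosolic enzymes.

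For Prdx1 the exercised arrays gave 2646, 3081 and 3653 (lowest, median and highest) and the sedentary arrays 2502, 3015 and 3546. The difference was 0.02 ± 0.081 (SE, n = 6 each, limma adjusted p = 0.920), well within the spread of either group, and -0.03 without sedentary 17, the lowest array. Prdx6, which also acts on phospholipid peroxides, had 3 tested probe sets. They gave -0.02 ± 0.094 for rc_AA892041_at, 0.06 ± 0.10 for Y17295cds_s_at and -0.02 ± 0.10 for AF014009_at, with adjusted p between 0.784 and 0.924. On Y17295cds_s_at sedentary 17 was lowest, and the difference without it was -0.02. These 3 followed one another over the 12 arrays, with Pearson r of 0.479 to 0.844 after group means were removed.

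Red cell transcripts differed between arrays, and Prdx2, Cat and Gpx1 are enzymes of red cells too. Hbb, a haemoglobin chain, was at 8786 in exercised 5, at 15784 in exercised 4 and at 28362 to 33321 in the remaining 4 exercised samples, against 31533 to 37794 in the sedentary samples. Of 3 tested erythroid markers all were lower by sign in exercised samples, with a median difference of -0.28. In limma 0 passed the adjusted threshold and 2 had an unadjusted p under 0.05. Their summed intensity was 13476 to 38361 on exercised and 37210.5 to 42376 on sedentary arrays. Most of it came from Hbb, with means of 25034 and 34164 on exercised and sedentary arrays. Alas2, another of the 3, was at 1831 in exercised 4 and 2188 in exercised 5, against 2108 to 2766 in the remaining exercised samples. The markers did not rank the arrays alike, since sedentary 17 had the highest Hbb (37794) and the lowest Alas2 (2140) of the sedentary samples. Without exercised 4 and 5 the difference was 0.02 for Prdx2, 0.10 for Gpx1 on X12367cds_s_at and 0.04 on X07365_s_at. For Cat the sign turned, to 0.02 on M11670_at and 0.12 on rc_AA926149_g_at, and none of these 5 values passed. The shift was not limited to these genes. In the same fit the median over the tested members was 0.07, against 0.02 with all arrays. The sign also turned for Prdx6, to 0.05 on rc_AA892041_at and 0.08 on AF014009_at. The part of red cell RNA in these values was not tested.

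In mitochondria, Sod2 was the most variable member. Its only probe set, Y00497_s_at, gave 1350, 2218.5 and 3274 on exercised arrays (lowest, median and highest), against 1287, 2377 and 2741 on sedentary arrays. Both groups spanned more than the difference between their means, which were 2272 ± 663 and 2218 ± 523 on exercised and sedentary arrays (SD, n = 6 each). The difference was 0.02 ± 0.17 (SE, limma adjusted p = 0.966), and its 95% interval corresponds to folds of 0.782 to 1.31, the widest of the tested members. Its residual SD of 0.35 log2 within groups was larger than that of 99.2% of all tested probe sets. Without sedentary 17, the lowest array, the difference was -0.10 (adjusted p = 0.778).

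Gpx4, which reduces peroxides within membranes, gave 8836, 10399 and 11489 on exercised arrays (lowest, median and highest), against 9147, 9884 and 11507 on sedentary arrays. The groups overlapped throughout. The difference was 0.05 ± 0.073 (SE, n = 6 each, limma adjusted p = 0.756), with folds of 0.926 to 1.15 in its 95% interval.

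Catalase, the peroxisomal enzyme that splits hydrogen peroxide, was lower by sign on both tested probe sets. With M11670_at it gave 3002, 3477 and 4066 on exercised arrays (lowest, median and highest), against 2513, 3915 and 4494 on sedentary arrays. The sedentary range enclosed the exercised one, because sedentary 17 was the lowest array and 3 sedentary arrays were above all exercised ones. The difference was -0.06 ± 0.12 (SE, n = 6 each, limma adjusted p = 0.815), and it was -0.16 without sedentary 17 (adjusted p = 0.444) and 0.02 without exercised 4 and 5. With rc_AA926149_g_at it was -0.01 ± 0.14 (adjusted p = 0.976), and -0.09 without sedentary 17.

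How far these data bound a change varies by member. For 11 of the 18 tested member probe sets, the 95% interval of the difference lay within 0.3 log2 on either side of 0. The exceptions were Sod2, both tested Cat probe sets, M25157mRNA_i_at of Sod1, Z24721_at of Sod3 and both Gpx3 probe sets. On the log2 scale used, 16 of the 18 members had a residual SD within groups above the median of all tested probe sets, and 7 were above 90% of them. All 18 also had a mean intensity above the median of the means on the array. The scale makes changes of dim probe sets look smaller, so this comparison does not separate the spread of the members from their brightness. Whether members vary more than probe sets of similar intensity was not tested. The median residual SD was 0.16 log2 for the members and 0.10 for all tested probe sets. The lowest values among members were those of Sod3, at 0.08 on each of its probe sets.

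Some pairs of members varied together within groups. Of 143 pairs of probe sets from different genes, 45 (31.5%) had a Pearson r above 0.5 over the 12 arrays with group means removed, and the median was 0.287. Over all pairs of tested probe sets 14% were above 0.5 and the median was 0.00. Of 10 pairs from the same gene 3 were above 0.5, with a median of 0.389. Without sedentary 17 the median was 0.292 for pairs from different genes and 0.254 for pairs from the same gene. These points share arrays and their overall scaling, so the values describe these arrays. By array, exercised 1 and exercised 5 were below their group mean at 15 of the 18 members each and sedentary 17 at 15, whereas exercised 9 was below at 2. The median deviation of the members was 0.11 log2 on exercised 9, -0.13 on exercised 5 and -0.15 on sedentary 17, while the median over all tested probe sets was between -0.01 and 0.01 on each of the 12 arrays.

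**Figure D3:**
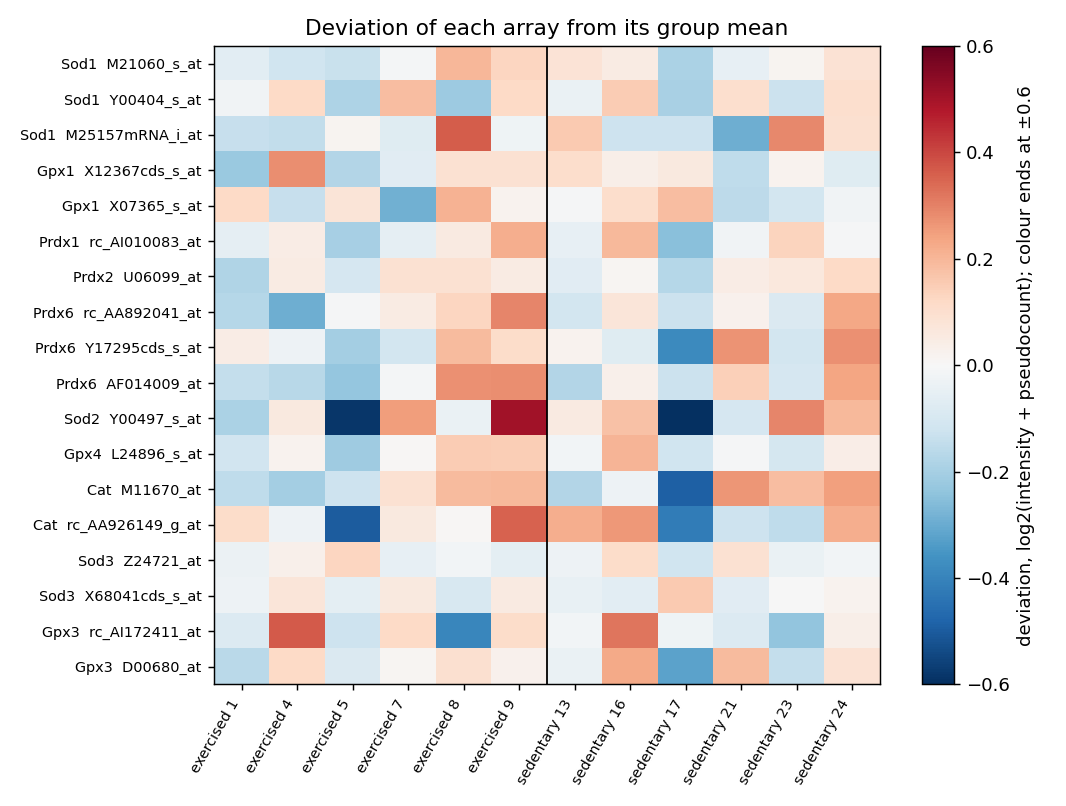
Deviation of each of the 12 arrays (columns, exercised left and sedentary right of the line) from its own group mean, for the 18 tested member probe sets (rows), in log2(intensity + pseudocount); red is above and blue below the group mean. Exercised 5 and sedentary 17 are below their group mean at most members, and exercised 9 is above it at 16, with the strongest colours at Sod2 and Cat.

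By Pearson r over all 12 arrays with group means removed, the closest pair from different genes was Prdx1 and Sod2 (r = 0.857, Spearman rho = 0.699). This order depended on the measure and on 1 array. By rho the closest was Sod1 (Y00404_s_at) with Gpx3 (rc_AI172411_at), at 0.860. Without sedentary 17, Prdx6 (AF014009_at) with Cat (M11670_at) had an r of 0.838 and the Sod1 and Gpx3 pair 0.829, against 0.778 for Prdx1 and Sod2. Sod2 was lowest on sedentary 17 and exercised 5, and Prdx1 was lowest there within each group as well. Without these 2 arrays r of Prdx1 and Sod2 was 0.640. Sod2 and Cat (rc_AA926149_g_at) had an r of 0.803, which was 0.403 without the same 2 arrays and so rests largely on them. Prdx2 and Cat (M11670_at) had an r of 0.805, and 0.869 without exercised 4 and sedentary 17, the arrays farthest from the median of Cat. It was 0.703 without exercised 1 and sedentary 17, the arrays farthest from the median of Prdx2, and 0.708 without sedentary 17 alone.

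**Figure D4:**
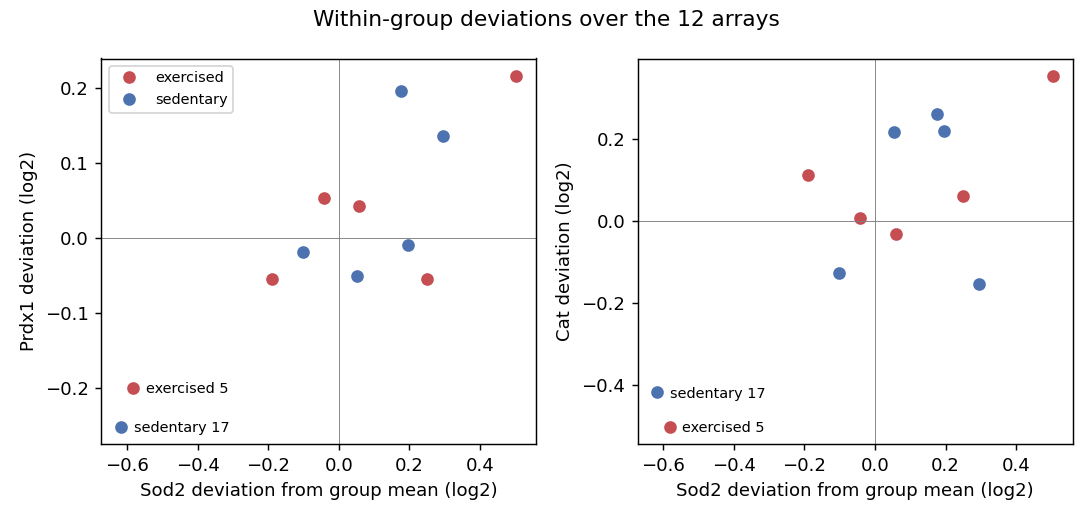
Deviation of Sod2 from its group mean on each array (x axis, log2) against that of Prdx1 (left, y axis) and of Cat with rc_AA926149_g_at (right, y axis), with exercised arrays in red and sedentary arrays in blue. Exercised 5 and sedentary 17 form the low end for all 3 genes, and r without them is 0.640 for Prdx1 and 0.403 for Cat.

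The promoters of Prdx1 and Sod2 are shown because these 2 genes had the highest Pearson r over all 12 arrays, though not by rho or without sedentary 17. The sequences are the 250 bases before the gene start in RefSeq (build GRCr8), 5′ to 3′ on the gene's strand, and capitals mark a match to the core of the antioxidant response element, the site of the transcription factor Nrf2. That of Prdx1 is at chr5:135383656-135383905 (+ strand) and that of Sod2 at chr1:50050169-50050418 (- strand).
Prdx1: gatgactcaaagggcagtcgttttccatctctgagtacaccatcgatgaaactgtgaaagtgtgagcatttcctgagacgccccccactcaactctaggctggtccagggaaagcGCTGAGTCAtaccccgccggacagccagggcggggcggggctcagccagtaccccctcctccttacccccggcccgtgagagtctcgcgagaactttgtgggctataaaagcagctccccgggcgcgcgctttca
Sod2: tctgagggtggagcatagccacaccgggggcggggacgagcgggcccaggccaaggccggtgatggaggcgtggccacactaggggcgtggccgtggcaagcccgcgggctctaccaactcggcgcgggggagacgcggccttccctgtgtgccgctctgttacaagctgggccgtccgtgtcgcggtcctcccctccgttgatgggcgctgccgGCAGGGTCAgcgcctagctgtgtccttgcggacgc
The core was searched as TGACNNNGC on both strands, and both matches are on the strand opposite to the gene, beginning 135 bases before the start in Prdx1 and 35 in Sod2. It was found in 10.1% of the 33469 promoters in the table. The table holds 8 of the 10 members, all except Sod3 and Prdx6, and the core was in no further one of the 8. Among other motifs searched on both strands, the GC box GGGCGG was in 7 of the 8 and 30.5% of all promoters, the CACCC box CACCC in 5 and 49.2%, the TATA box TATAAA in 2 and 12.9%, and the E-box CACGTG in 0 and 5.59%. None of the 5 motifs contains another. A match describes these letters only.

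The genes whose within-group pattern was most like that of Sod3 (Z24721_at), among 3875 genes over the 12 arrays, were Actg1, cytoplasmic gamma actin (r = 0.884), Pdgfra, a growth factor receptor of fibroblasts (0.830), and P4ha1, an enzyme of collagen maturation (0.823). Of these, Pdgfra is on the fibroblast list, with a mean of 1380 on exercised and 1062.5 on sedentary arrays (difference 0.28, limma adjusted p = 0.226), and its other tested probe set gave -0.07. For Sod2 they were the sterol hydroxylase Cyp27a1 (r = 0.932), the cytochrome Cyb5a (0.929) and the small GTPase Rasl11a (0.928). These r values are the highest among 3875 genes, so the choice alone makes them high. What unrelated genes would reach was not tested. The r values are over all 12 arrays only, and Sod2 was lowest on exercised 5 and sedentary 17. How far they rest on those arrays was not tested. None of these 6 genes passed the threshold, with adjusted p of 0.226 to 0.731.

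Genes around these enzymes were taken from lists of partners, fuel, regulators and sources. Of 39 tested genes, 1 passed the adjusted threshold, and it was higher, where 0.275% of all tested probe sets passed as higher. By sign 16 were higher and 23 were lower, and the median difference was -0.01. The gene that passed was Xdh, xanthine dehydrogenase, whose oxidase form produces superoxide and hydrogen peroxide. Xdh rose by 0.55 ± 0.065 (SE, n = 6 each, limma adjusted p = 0.00191), with means of 2511 ± 186 on exercised and 1601 ± 192 on sedentary arrays.

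Among 9 tested sources of superoxide and peroxide, Maoa, the mitochondrial monoamine oxidase that releases hydrogen peroxide, was lower by sign on both probe sets. Its means were 5705 ± 2767 on exercised and 8298 ± 1846 on sedentary arrays (SD, n = 6 each), a difference of -0.59 ± 0.23 (SE, limma adjusted p = 0.230). The gene thus had both a large difference and a large spread, and it did not pass. Cyba, a subunit of the NADPH oxidase, gave 0.04, and the nitric oxide synthases Nos1, Nos2 and Nos3 gave -0.04, 0.02 and 0.02.

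Of 12 tested genes of the glutathione and thioredoxin systems, 4 were higher and 8 lower by sign and 0 passed. Selenop, which carries selenium to the cells that make glutathione peroxidases, was the 1 with an unadjusted p under 0.05. Its means were 4388 ± 520 on exercised and 3722 ± 271 on sedentary arrays, and each of the 6 exercised arrays was above the sedentary mean (difference 0.21 ± 0.073 SE, n = 6 each, limma adjusted p = 0.171). The genes higher by sign besides Selenop were Txnip, Txn2 (a thioredoxin) and Selenow, at 0.27, 0.22 and 0.11, with limma adjusted p of 0.354, 0.311 and 0.559. The other tested probe set of Txnip gave 0.08. Gsr, the reductase that regenerates glutathione, gave -0.07, Gclc and Gclm, the subunits of the first enzyme of glutathione synthesis, -0.01 and -0.02, and the thioredoxin reductases Txnrd1 and Txnrd2 -0.01 and -0.05. Among 4 tested other peroxidases, the mitochondrial peroxiredoxin Prdx3 gave 0.06 and 0 passed.

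The enzymes that supply NADPH, the electron source of both systems, went in both directions. Of 6 tested, 0 passed on the brightest probe set of the gene. Idh2, the mitochondrial isocitrate dehydrogenase, had means of 32731 ± 1093 on exercised and 37188 ± 1820 on sedentary arrays without overlap (difference -0.18 ± 0.040 SE, n = 6 each, limma adjusted p = 0.0617). Its cytosolic counterpart Idh1 had 1950.1 ± 319 and 1651 ± 101 on exercised and sedentary arrays (0.19 ± 0.078, adjusted p = 0.243), and Tkt, transketolase of the pentose phosphate pathway, gave 0.08 ± 0.035 (adjusted p = 0.282). The dimmer Idh2 probe set, rc_AA891785_at, passed the threshold, with means of 23073 ± 1.31e+03 on exercised and 28027 ± 1.93e+03 on sedentary arrays (difference -0.28 ± 0.053, limma adjusted p = 0.0404). With 1 array left out its adjusted p ran from 0.0370 to 0.104, and 9 of the 12 fits lost the call. All 6 exercised arrays were above the sedentary mean for Idh1 and for Tkt, and 0 of 6 for Idh2. Such counts, also given for Selenop, were not compared with their share over all tested probe sets. Of 8 tested Nrf2 targets and metal storage genes, 0 passed or had an unadjusted p under 0.05. Nfe2l2, which encodes Nrf2, gave 0.01, Hmox1, heme oxygenase, 0.03, and Nqo1, a quinone reductase, -0.08. The probe sets of some of these small differences disagreed in sign, since the dimmer one gave 0.03 for Gsr, 0.04 for Txnrd2 and -0.06 for Hmox1.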

How the data were processed

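Ventricular RNA of 12 arrays was analysed from the authors' deposited table of intensity values, 1 per probe set and array. How the authors scanned, background-corrected, scaled and called these intensities is not given in the sources used here, so a change in total RNA per cell would not be seen. Arrays were assigned by title, and no batch is given. The members, gene lists and left-out pairs of arrays were chosen with earlier results of these data known.

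Gene names came from the platform annotation: 7006 probe sets named 1 gene, 308 several and 1426 none. The pseudocount was the 20th percentile of all values (362.6), and probe sets with a mean above the 25th percentile of means (434) were tested, 6555 of 8740. Differences were tested two-sided with limma 3.58.1 in R 4.3.3 (moderated variances with trend), and p-values were Benjamini-Hochberg adjusted over all tested probe sets, with a threshold of 0.05. The code was tested on simulated data. The number of arrays limits the precision. For list genes the probe set of highest mean was used. Named list genes were those with an unadjusted p under 0.05, at most 3 per list, by smallest p. Cyba, the nitric oxide synthases, Gsr, Gclc, Gclm, Txnrd1, Txnrd2, Prdx3, Nfe2l2, Hmox1, Nqo1, Hbb, Des, Acta2 and the macrophage markers are named besides these, chosen with their values known. The same holds for Alas2, Mgp, Txnip, Txn2 and Selenow. Of the marker lists, the atrial and adipocyte ones had 3 and 5 tested genes with median differences of -0.29 and 0.00, and 0 passed in limma, while 0 and 1 had an unadjusted p under 0.05.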

Additional observations from a re-analysis of the deposited data

Results flagged for a closer look

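Within groups of 6 arrays, 40 sets of values were examined for a value far from the others, and 2 had one. Chance sets 1 in 20 such groups apart. Sod1 on M25157mRNA_i_at had 5009 on exercised 8, against 3398 to 3862 on the other exercised arrays. The dim Cat probe set rc_AA926149_at, which was not tested, had 134.6 on sedentary 17, against 216 to 254 on the other sedentary arrays.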

How the results depend on the processing

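No member passed an adjusted p of 0.05 under any of the 26 alternatives in pseudocount, filter, scaling, variance model, test or arrays left out. The lowest adjusted p of a member was 0.0771 (Sod3, with the filter at the median of the means), and 0 passed 0.10 in the fit reported. The differences of Sod3 and Gpx3 on both probe sets, X12367cds_s_at of Gpx1 and M25157mRNA_i_at of Sod1 kept their sign under all 26. The median over the tested members lay between -0.04 and 0.07. Differences near 0 changed sign. With quantile normalization they were -0.079 for Sod1 (M21060_s_at), -0.019 for Sod1 (Y00404_s_at), -0.038 for Gpx1 (X07365_s_at), -0.071 for Prdx2 (U06099_at) and -0.040 for Gpx4 (L24896_s_at). With array weights they were -0.058 for Sod1 (M21060_s_at), -0.0080 for Sod1 (Y00404_s_at), -0.047 for Prdx1 (rc_AI010083_at), -0.041 for Prdx2 (U06099_at), -0.048 for Prdx6 (Y17295cds_s_at), -0.10 for Sod2 (Y00497_s_at) and -0.014 for Gpx4 (L24896_s_at). Without exercised 4 and 5 together they were 0.053 for Prdx6 (rc_AA892041_at), 0.076 for Prdx6 (AF014009_at), 0.018 for Cat (M11670_at) and 0.12 for Cat (rc_AA926149_g_at). Without sedentary 16 and 17 together they were -0.032 for Sod1 (M21060_s_at), -0.038 for Prdx2 (U06099_at), -0.053 for Prdx6 (Y17295cds_s_at) and -0.091 for Sod2 (Y00497_s_at). With 1 array left out, the members whose sign changed ran from -0.036 to 0.031 for Sod1 (M21060_s_at), -0.011 to 0.071 for Sod1 (Y00404_s_at), -0.019 to 0.079 for Gpx1 (X07365_s_at), -0.031 to 0.059 for Prdx1 (rc_AI010083_at), -0.032 to 0.038 for Prdx2 (U06099_at), -0.081 to 0.037 for Prdx6 (rc_AA892041_at), -0.016 to 0.11 for Prdx6 (Y17295cds_s_at), -0.080 to 0.023 for Prdx6 (AF014009_at), -0.10 to 0.14 for Sod2 (Y00497_s_at) and -0.094 to 0.090 for Cat (rc_AA926149_g_at). The cause was not tested, and none of these values passed the threshold.

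Of the surrounding genes 1 passed (Xdh), also with each array left out in turn. With the filter at the median of the means and with array weights 2 passed, the second being Idh2 at -0.18 and -0.16 on its brighter probe set (adjusted p = 0.0420 and 0.0377). Lyz2 and the dimmer probe set of Idh2 kept their sign under all 26 and passed under 15 and 13. With the exact rank-sum test 0 of the 6555 probe sets passed, and Xdh had an adjusted p of 0.104, the smallest it gave. No paired analysis was possible because the arrays of the 2 groups share no number in their labels. Signal over background was not stated, which limits what can be said of the dim probe sets of Gpx1 and Cat.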
